A study of Mus musculus with 16 samples.

Results

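The interferon gamma axis was followed through 6 genes in colonic mucosa of mice with chemically induced colitis: the cytokine Ifng, the chemokines Cxcl9, Cxcl10 and Cxcl11 that it induces, the signalling inhibitor Socs1 and the cytokine Il15. These genes were taken by name from a real-time PCR panel and had 7 assays, 2 of them for Ifng, out of 648 assays for 584 genes. The 16 samples formed 4 groups of 4. Mice of the DNBS_CEC group were given an enema of DNBS (dinitrobenzene sulfonic acid), which haptenates gut proteins and inflames the colon, and by mouth an agent that the labels give only as CEC. Mice of the DNBS_Nissle group received intrarectal DNBS and oral Nissle, the Escherichia coli strain used as a probiotic. Mice of the DNBS group received intrarectal DNBS and oral buffer (PBS), and Healthy mice received PBS by both routes. The labels name no allele, strain or age. The series description says that RNA of individual mice was pooled, while each sample has its own number, so a sample may stand for 1 mouse or for several, and every p below measures only the spread between samples. Colonic mucosa is a mixed tissue, in which fewer cells of a type cannot be told apart from less RNA per cell.

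Interferon gamma is made mainly by T cells and natural killer cells. It binds a receptor on nearly every nucleated cell and acts through Jak kinases, whose signal turns on genes such as Cxcl9, Cxcl10 and Cxcl11. These chemokines attract cells that carry the receptor Cxcr3, while Socs1 binds Jak kinases and shuts the signal down. Il15, made by epithelial and myeloid cells, maintains natural killer cells, memory CD8 T cells and intraepithelial lymphocytes of the gut. Cxcl9, Cxcl10 and Cxcl11 lie beside one another on mouse chromosome 5, between positions 92321331 and 92363296 of the GRCm38.p6 assembly. Il15 lies on chromosome 8, Ifng on chromosome 10 and Socs1 on chromosome 16.

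The promoters of Socs1 and of Cxcl9 and Cxcl10, whose levels Socs1 followed across the samples, are shown first, with the letters of an element known to respond to interferons marked. RefSeq windows of GRCm38.p6, from 250 bases before to 50 bases after the transcription start, matched 4 of the 6 members, namely Ifng, Cxcl9, Cxcl10 and Socs1; those of Cxcl9, Cxcl10 and Socs1 follow, 5′ to 3′ on the strand of the gene. Capitals mark every match, on either strand, to the interferon-stimulated response element GAAANNGAAA, of which 3.4% of all 32544 promoter windows hold at least 1.
Cxcl9 (chr5:92328030-92328329, minus strand): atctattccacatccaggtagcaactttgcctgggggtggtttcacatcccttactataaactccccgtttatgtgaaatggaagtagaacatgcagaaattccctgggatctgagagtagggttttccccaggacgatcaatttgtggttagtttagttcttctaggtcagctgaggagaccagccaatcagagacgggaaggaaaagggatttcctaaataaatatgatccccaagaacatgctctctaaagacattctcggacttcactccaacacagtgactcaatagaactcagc
Cxcl10 (chr5:92348840-92349139, minus strand): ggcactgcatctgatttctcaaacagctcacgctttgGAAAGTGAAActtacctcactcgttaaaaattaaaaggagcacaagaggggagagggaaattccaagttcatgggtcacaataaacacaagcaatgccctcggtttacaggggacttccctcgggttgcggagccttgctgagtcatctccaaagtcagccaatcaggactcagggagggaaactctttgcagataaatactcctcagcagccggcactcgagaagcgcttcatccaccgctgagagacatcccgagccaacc
Socs1 (chr16:10785487-10785786, minus strand): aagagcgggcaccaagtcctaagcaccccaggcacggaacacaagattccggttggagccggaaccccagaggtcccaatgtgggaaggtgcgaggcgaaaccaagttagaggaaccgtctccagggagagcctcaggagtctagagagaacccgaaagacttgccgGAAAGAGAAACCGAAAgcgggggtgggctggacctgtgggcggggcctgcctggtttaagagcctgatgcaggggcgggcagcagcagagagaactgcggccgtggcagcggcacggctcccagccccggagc
The Cxcl10 window holds 1 response element, which starts at position −213 from the transcription start. Socs1 holds 2 that overlap, starting at positions −83 and −77. The Cxcl9 window does not hold the motif in these letters. A second motif was also searched in these windows and is not reported here. A match describes the sequence and was not tested as a binding site.

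Each value below is a cycle threshold (Ct), the PCR cycle at which an assay's fluorescence crosses its threshold, or a level, written −ΔCt: the gene's Ct subtracted from the mean Ct over 13 reference genes. The level is on a log2 scale, and higher means more RNA. A Ct above 28 was counted as not detected and set to 28 in the tests, and a gene was tested when at least 3 of 4 samples of each group detected it. Differences were fitted with limma over all genes, with a threshold of 0.05 on the Benjamini-Hochberg adjusted p. Between 528 and 564 assays were detected in a sample, and the mean reference Ct lay between 18.69 and 20.12. Of the 96 member values, 3 equal the average of their group's remaining samples and were read as filled-in gaps, and 6 have shortened decimals, which can shift a value by less than 1 cycle. DNBS_Nissle sample 1 and Healthy sample 3 hold 61 and 57 filled-in values over the whole panel, against at most 12 in another sample.

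No member passed the adjusted threshold in any comparison. Of the 4 members tested against Healthy, Il15 was the one whose levels did not overlap between DNBS-treated and Healthy mucosa, with a pooled fold of 0.494. Ifng, Cxcl10 and Cxcl11 had their highest level of the 16 in 1 DNBS_Nissle sample, and Cxcl9 and Socs1 in 1 DNBS_CEC sample. These are DNBS_Nissle sample 1 and DNBS_CEC sample 2, and differences and correlations that rest on them are given with and without them, a choice made after the values were seen.

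**Figure D1:**
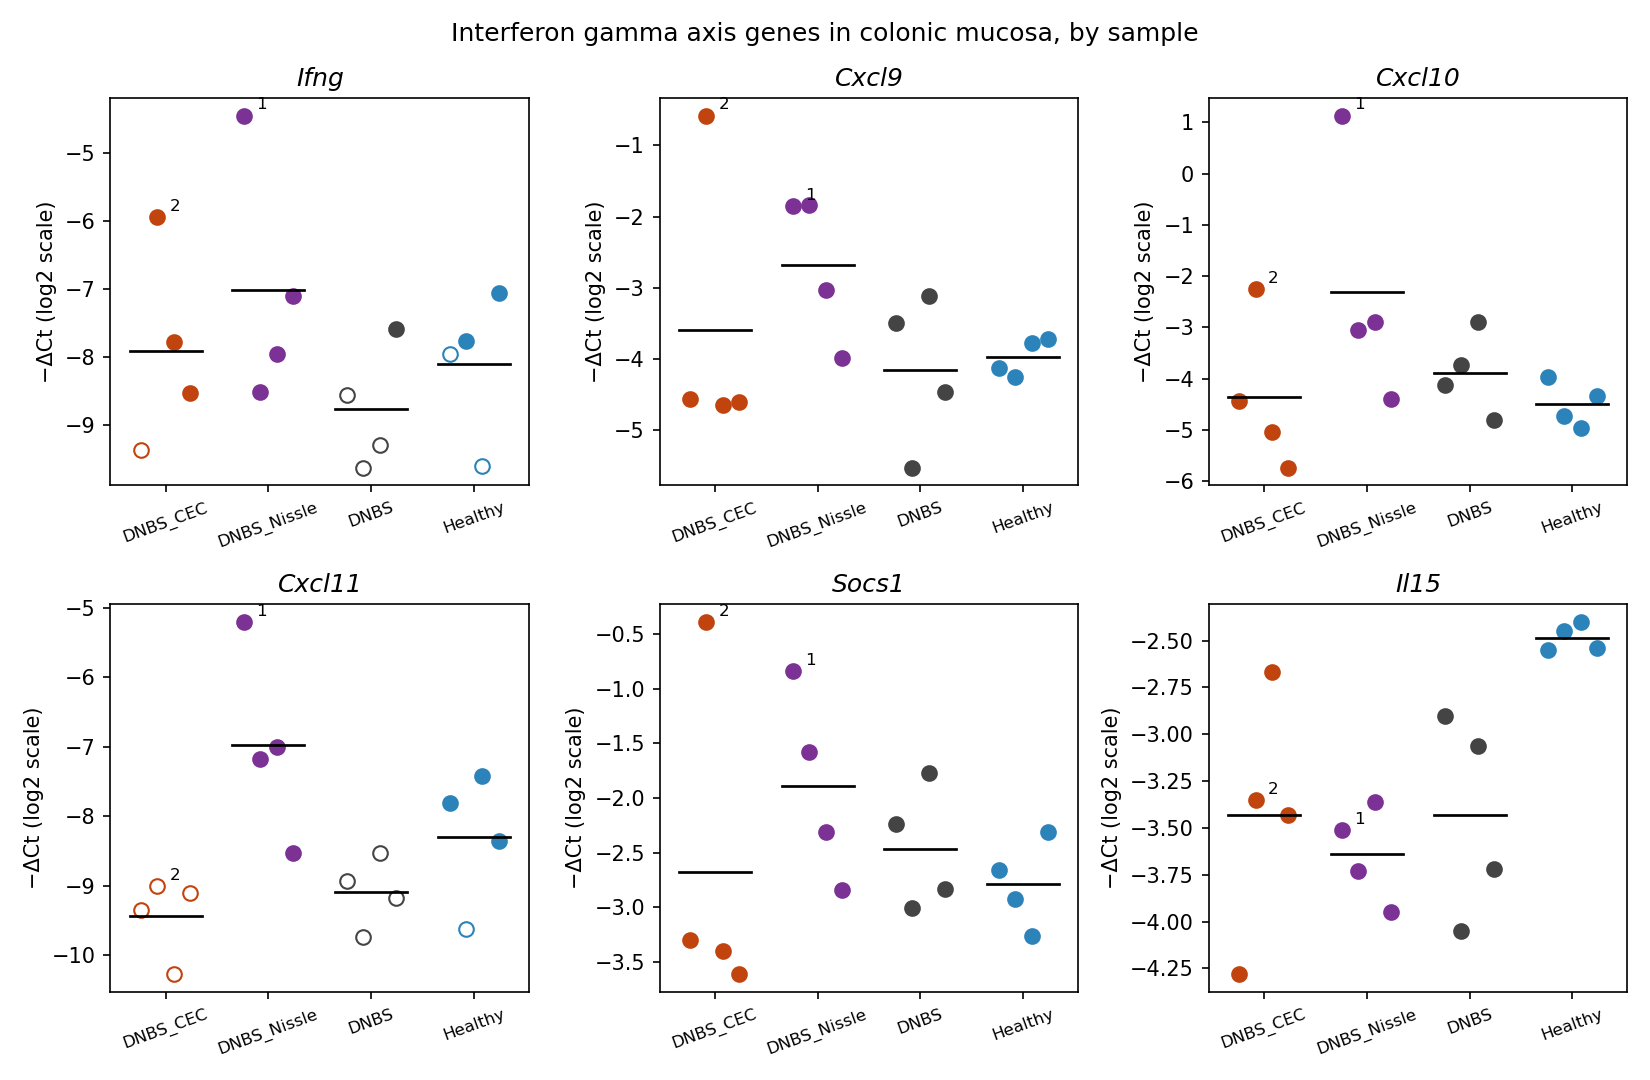
Level (−ΔCt, log2 scale) of the 6 genes in each sample, by group; points are samples, horizontal bars are group means, open points have a Ct above 28, and the numbers 1 and 2 mark DNBS_Nissle sample 1 and DNBS_CEC sample 2. Cxcl9 and Socs1 show 1 DNBS_CEC sample far above the other 3, and all 12 DNBS-treated samples lie below the 4 Healthy samples for Il15.

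Ifng, the ligand of the axis, was close to the detection limit in most samples. Its Ct was 28.65, 25.16, 27.50 and 27.53 in DNBS_CEC samples 1, 2, 6 and 8, and 23.42, 27.38, 27.72 and 25.80 in DNBS_Nissle samples 1, 4, 5 and 7. In DNBS samples 2 to 5 it was 28.17, 28.63, 29.15 and 26.58, and in Healthy samples 3 to 6 it was 28.08, 27.10, 28.95 and 26.59, the last pair of them shortened values. Ifng was thus detected in 3 of 4 DNBS_CEC, 4 of 4 DNBS_Nissle, 1 of 4 DNBS and 2 of 4 Healthy samples, and the Ct ranges of all groups overlap. The levels ranked DNBS_Nissle, DNBS_CEC, Healthy and DNBS, at −7.01 ± 1.80, −7.90 ± 1.46, −8.10 ± 1.08 and −8.77 ± 0.91 with every Ct as measured (SD, n = 4 each), and neighbours in that order differ by less than their SD. Only the comparison of DNBS_CEC with DNBS_Nissle met the rule for testing, and there the difference was −0.73 ± 0.76 (SE; limma adjusted p = 0.974); it was 0.12 without DNBS_Nissle sample 1, −1.33 without DNBS_CEC sample 2 and −0.48 without both.

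The second Ifng assay crossed its threshold later than the first in all 14 samples in which both amplified, by 0.48 to 3.04 cycles, and did not amplify in Healthy samples 3 and 4. It was below a Ct of 28 in DNBS_CEC sample 2, at 26.46, and in DNBS_Nissle sample 1, at 25.04, and in no other sample. Both assays therefore place the most Ifng RNA in the same 2 samples.

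Cxcl9, a chemokine for Cxcr3-bearing T cells that depends largely on interferon gamma, had levels of −4.56, −0.58, −4.64 and −4.60 in DNBS_CEC samples 1, 2, 6 and 8 and of −1.85, −1.84, −3.03 and −3.99 in DNBS_Nissle samples 1, 4, 5 and 7. In DNBS samples 2 to 5 they were −3.49, −5.53, −3.12 and −4.46, and in Healthy samples 3 to 6 they were −4.12, −4.26, −3.78 and −3.72. In DNBS_CEC mucosa 3 samples lay close together below every Healthy sample, and sample 2 lay above every other sample of the series. The group means were −3.60 ± 2.01 in DNBS_CEC, −2.68 ± 1.04 in DNBS_Nissle, −4.15 ± 1.08 in DNBS and −3.97 ± 0.26 in Healthy mucosa (SD, n = 4 each). Neighbours in the order DNBS_Nissle, DNBS_CEC, Healthy, DNBS differ by less than the larger of their SDs.

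Cxcl10, which binds the same receptor and can also be induced by type I interferons, had levels of −4.44, −2.25, −5.04 and −5.74 in DNBS_CEC samples 1, 2, 6 and 8 and of 1.13, −3.05, −2.90 and −4.39 in DNBS_Nissle samples 1, 4, 5 and 7. In DNBS samples 2 to 5 they were −4.12, −3.74, −2.90 and −4.80, and in Healthy samples 3 to 6 they were −3.96, −4.72, −4.96 and −4.33, the first of these a filled-in value; the values of DNBS_Nissle sample 4 and DNBS sample 5 are shortened. DNBS_Nissle sample 1 stood above every other sample, while the other DNBS_Nissle samples overlap every group. The group means were −4.37 ± 1.51 in DNBS_CEC, −2.30 ± 2.39 in DNBS_Nissle, −3.89 ± 0.79 in DNBS and −4.49 ± 0.44 in Healthy mucosa (SD, n = 4 each). In the order DNBS_Nissle, DNBS, DNBS_CEC, Healthy, neighbours differ by less than the larger of their SDs.

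Cxcl11, the chemokine that binds Cxcr3 and also Cxcr7, was detected in all DNBS_Nissle samples and in no DNBS_CEC or DNBS sample. Its Ct was 28.62, 28.22, 29.98 and 28.11 in DNBS_CEC samples 1, 2, 6 and 8 and 24.16, 26.05, 26.76 and 27.22 in DNBS_Nissle samples 1, 4, 5 and 7, where the value of sample 4 is filled in. It was 28.54, 28.75, 28.38 and 28.18 in DNBS samples 2 to 5, and 27.92, 28.95, 26.76 and 27.88 in Healthy samples 3 to 6, where the value of sample 6 is filled in. Every DNBS_Nissle sample crossed the threshold earlier than every DNBS_CEC and every DNBS sample, and 3 of 4 Healthy samples also detected the gene. DNBS_CEC sample 2, the highest of all samples for Cxcl9, lay just past the detection limit for Cxcl11, where its level was the highest of the DNBS_CEC samples. With every Ct as measured, the levels averaged −9.43 ± 0.58 in DNBS_CEC, −6.98 ± 1.37 in DNBS_Nissle, −9.10 ± 0.51 in DNBS and −8.30 ± 0.96 in Healthy mucosa (SD, n = 4 each), and the DNBS_Nissle and Healthy means differ by less than the larger SD.

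Because of the limit of detection, Cxcl11 was compared in 2 ways. As detected or not, 4 of 4 DNBS_Nissle samples stood against 0 of 4 DNBS samples, and 0 of 4 DNBS_CEC samples stood against 4 of 4 DNBS_Nissle samples (two-sided Fisher's exact p = 0.0286 for each; adjusted p = 1 over the 71 and 90 genes with incomplete detection). Counting a gene as differing when 3 or 4 samples of one arm and 0 or 1 of the other detected it, 5.63% of the 71 were detected more often in DNBS_Nissle than in DNBS mucosa, and 4.44% of the 90 less often in DNBS_CEC than in DNBS_Nissle mucosa. With every Ct as measured, the level differed by 2.12 ± 0.62 in DNBS_Nissle against DNBS mucosa (SE, 95% interval 0.80 to 3.44, limma adjusted p = 0.964 over 512 genes) and differed by −2.45 ± 0.62 in DNBS_CEC against DNBS_Nissle mucosa (interval −3.77 to −1.13, adjusted p = 0.247 over 511 genes). The exact permutation p was 0.0286 for both, the smallest that 4 samples against 4 can give. Groups without overlap fix it at that value, as 4 against 0 detected samples fix the Fisher p, so these p-values restate the same separation. The groups do not overlap, which held for 0.586% of genes in the direction of higher in DNBS_Nissle than in DNBS mucosa and for 1.57% in the direction of lower in DNBS_CEC than in DNBS_Nissle mucosa. On the level scale the margin against DNBS was narrow, at −8.53 to the second decimal on both sides. Without DNBS_Nissle sample 1 the differences were 1.53 ± 0.55 against DNBS and −1.86 ± 0.55 for DNBS_CEC against DNBS_Nissle mucosa (adjusted p of 0.991 and 0.69), again with no overlap. On 5 other scales the groups stayed apart, with differences of 2.14 to 2.36 against DNBS and −2.80 to −2.44 for DNBS_CEC against DNBS_Nissle. With a detection limit at a Ct of 30 every sample detected Cxcl11, and with filled-in values missing 3 DNBS_Nissle samples remained, all of which detected it.

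Markers of other cell types also differed in these comparisons, not all of them in the direction of Cxcl11. Of 6 listed endothelial markers, 2 were on the panel, Sele and Selp. In units of the reference they summed to 0.0107 to 0.0539 in DNBS_CEC and 0.0594 to 0.29 in DNBS_Nissle mucosa. The sums were 0.0121 to 0.151 in DNBS and 0.00679 to 0.0153 in Healthy mucosa. DNBS_CEC and DNBS_Nissle did not overlap, while DNBS_Nissle and DNBS overlapped. Sele was not detected in Healthy mucosa, so the sum need not follow the amount of endothelium. Selp alone differed by −2.20 ± 0.71 in DNBS_CEC against DNBS_Nissle mucosa without overlap (SE, limma adjusted p = 0.672). All 5 neutrophil markers tested there were lower, Il8rb without overlap at −2.57 ± 0.80 (SE, limma adjusted p = 0.647). Of all 471 genes in that comparison, 0.849% were lower without overlap. The T cell markers Cd28 and Cd4 were higher there, at 1.18 ± 0.64 and 0.77 ± 0.60 (SE, limma adjusted p = 0.974 for each). So was the B cell marker Cd180, at 1.28 ± 0.46 (SE, limma adjusted p = 0.92), and all 3 overlapped. Of 5 markers of monocytes, macrophages and dendritic cells, 1 was higher and 4 lower. In DNBS_Nissle against DNBS mucosa, 4 of 6 neutrophil markers were higher and 2 lower. The fat markers, 4 of 4 on the panel, summed to 0.519 to 3.17 in DNBS_CEC and 0.889 to 1.5 in DNBS_Nissle mucosa. They summed to 2.02 to 4.83 in DNBS and 1.29 to 6.07 in Healthy mucosa. DNBS_Nissle and DNBS did not overlap, with the fat markers lower where Cxcl11 was higher, while DNBS_CEC and DNBS_Nissle overlapped. Of all 474 genes, 0.844% were lower without overlap in DNBS_Nissle than in DNBS mucosa. Lep was not detected in DNBS_Nissle mucosa. The part of these cell types, or of changes within them, in the Cxcl11 result was not tested.

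Socs1, the inhibitor that interferon gamma induces as negative feedback, had levels of −3.30, −0.39, −3.40 and −3.61 in DNBS_CEC samples 1, 2, 6 and 8 and of −0.84, −1.58, −2.31 and −2.84 in DNBS_Nissle samples 1, 4, 5 and 7. In DNBS samples 2 to 5 they were −2.24, −3.01, −1.77 and −2.83, and in Healthy samples 3 to 6 they were −2.66, −2.92, −3.26 and −2.31. As for Cxcl9, DNBS_CEC sample 2 was the highest of all samples, and the other 3 DNBS_CEC samples were the lowest of the series for Socs1. The group means were −2.68 ± 1.53 in DNBS_CEC, −1.89 ± 0.87 in DNBS_Nissle, −2.46 ± 0.57 in DNBS and −2.79 ± 0.40 in Healthy mucosa (SD, n = 4 each). The groups overlap.

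Il15, the cytokine that sustains intraepithelial lymphocytes, had levels of −4.28, −3.35, −2.67 and −3.43 in DNBS_CEC samples 1, 2, 6 and 8 and of −3.51, −3.73, −3.36 and −3.95 in DNBS_Nissle samples 1, 4, 5 and 7. They were −2.90, −4.05, −3.06 and −3.72 in DNBS samples 2 to 5, and −2.55, −2.45, −2.40 and −2.54 in Healthy samples 3 to 6; the values of DNBS_Nissle sample 4 and DNBS sample 2 are shortened. All 12 DNBS-treated samples, with a median of −3.47, lay below all 4 Healthy samples, which lay between −2.55 and −2.40. The group means were −3.44 ± 0.66 in DNBS_CEC, −3.64 ± 0.26 in DNBS_Nissle, −3.43 ± 0.54 in DNBS and −2.48 ± 0.07 in Healthy mucosa (SD, n = 4 each). The means of the DNBS-treated groups lay within 1 SD of each other.

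Set against Healthy mucosa, the 12 DNBS-treated samples together had less Il15, at 0.494-fold (difference −1.02 ± 0.29, SE; 95% interval −1.63 to −0.41). The limma adjusted p was 0.0881 over 453 genes, of which 1.99% passed the threshold, all of them higher after DNBS. The exact permutation p was 0.000549, the smallest that 1820 assignments can give, and it reflects the same lack of overlap that is given next. Lower levels in all DNBS-treated samples than in any Healthy sample occurred for 1 of the 453 genes, 0.221%, and that gene was Il15. The DNBS group alone differed from Healthy by −0.95 ± 0.35 (limma adjusted p = 0.332); 1.75% of 457 genes were lower without overlap in that comparison.

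The Il15 result was near the threshold, and the choice of reference moved it across. The main reference holds 2 unstable genes, Ywhaz and Rplp2, which varied within groups by 3.47 and 1.01 cycles (SD), while the other 11 varied by 0.27 to 0.57. Without them the difference was −1.12 (adjusted p = 0.0442), with the mean of all detected genes as reference it was −1.14 (adjusted p = 0.02), and after quantile normalization −1.24 (adjusted p = 0.0292). On each of those scales 5 genes, or 1.1%, were lower without overlap, Il15 among them. With Gapdh alone as reference the difference was −1.03 (adjusted p = 0.186), and 10 of the 12 DNBS-treated samples lay below every Healthy sample. Over all alternatives the difference stayed between −1.24 and −0.92, with adjusted p from 0.02 to 0.385. Without DNBS_CEC sample 6, the DNBS-treated sample with the most Il15, it was −1.10 and passed (adjusted p = 0.0423).

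**Figure D2:**
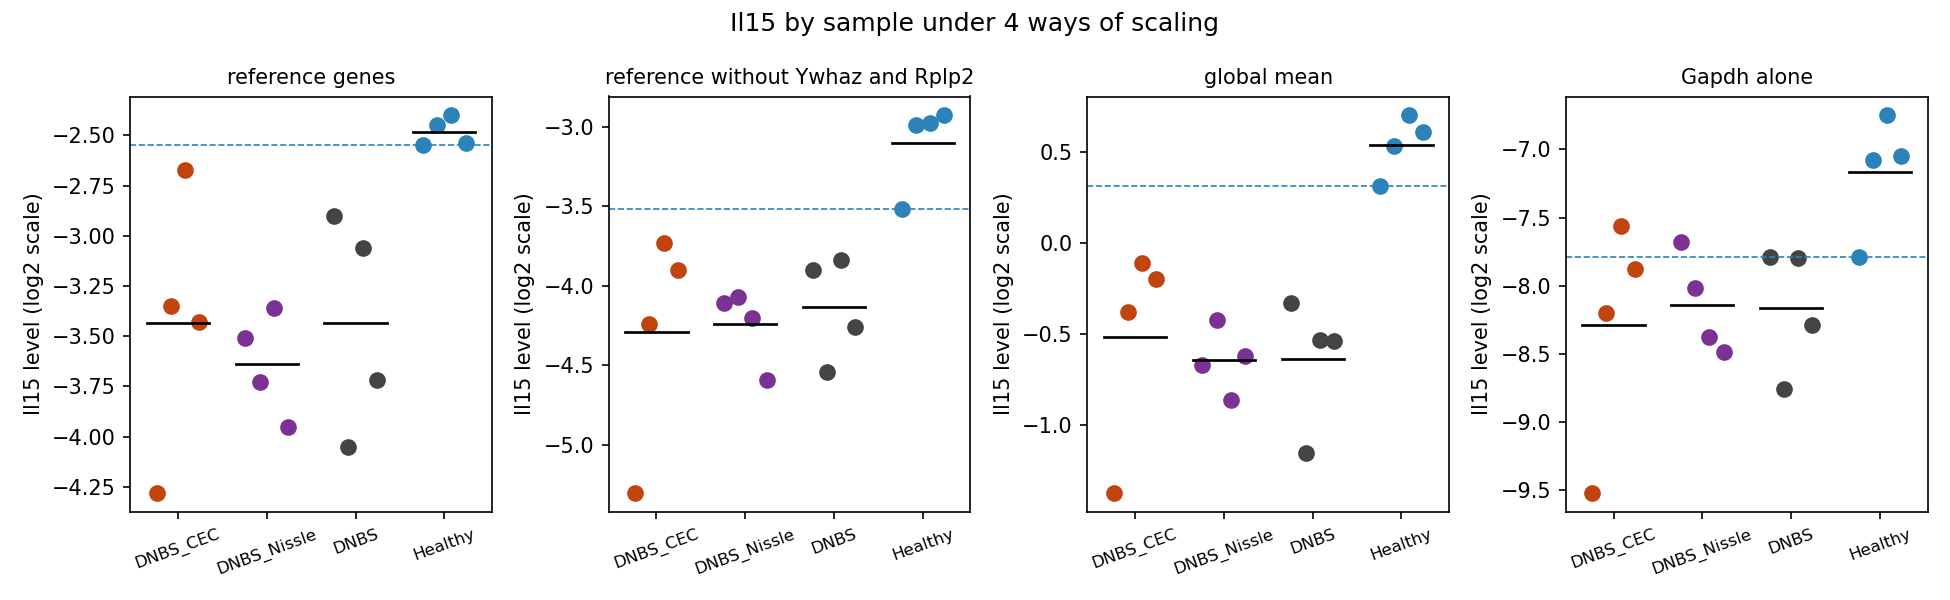
Level of Il15 (log2 scale) in each sample under 4 ways of scaling: the 13 reference genes, the same without Ywhaz and Rplp2, the mean of all detected genes, and Gapdh alone. Points are samples, black bars are group means, and the dashed line is the lowest Healthy sample; every DNBS-treated sample lies below it in the first 3 panels, and 10 of 12 do with Gapdh alone.

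Cxcl9, Cxcl10 and Socs1 did not separate DNBS-treated from Healthy mucosa. Over all 12 DNBS-treated samples the differences were 0.50 ± 0.65 for Cxcl9, 0.97 ± 0.76 for Cxcl10 and 0.44 ± 0.51 for Socs1 (SE; limma adjusted p of 0.821, 0.634 and 0.763). Without both samples that stand apart they were 0.07 ± 0.43, 0.35 ± 0.39 and 0.07 ± 0.31 (adjusted p from 0.844 to 0.993). Leaving out DNBS_CEC sample 2 alone gave 0.16 for Cxcl9 and 0.19 for Socs1, and leaving out DNBS_Nissle sample 1 alone gave 0.59 for Cxcl10. In DNBS against Healthy mucosa, where 0.219% of 457 genes passed, they were −0.18 ± 0.80, 0.60 ± 0.93 and 0.32 ± 0.62 (adjusted p = 0.969 for each). These intervals are wide: for Cxcl9 the 95% interval ran from −1.88 to 1.52, a range that holds large changes in both directions.

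Under DNBS, neither oral agent gave a member that passed. In DNBS_CEC against DNBS mucosa the differences were 0.55 ± 0.81 for Cxcl9, −0.48 ± 0.94 for Cxcl10, −0.21 ± 0.62 for Socs1 and −0.00 ± 0.35 for Il15 (SE; limma adjusted p from 0.992 to 0.999). None of the 474 genes passed, 0%, although 8 (1.69%) had an unadjusted p under 0.05, no member among them. Without DNBS_CEC sample 2 the Cxcl9 difference was −0.46, so that 1 sample decided its sign, and those of Cxcl10 and Socs1 were −1.18 and −0.97 (adjusted p = 0.984).

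In DNBS_Nissle against DNBS mucosa the differences were positive for the chemokines but did not pass, at 1.47 ± 0.81 for Cxcl9 and 1.59 ± 0.94 for Cxcl10, against 0.57 ± 0.62 for Socs1 and −0.21 ± 0.35 for Il15 (SE; limma adjusted p = 0.977 for the first 3 and 0.988 for Il15). Ifng as measured differed by 1.76 ± 0.88 (adjusted p = 0.994), and by 0.91 ± 0.78 without DNBS_Nissle sample 1 (adjusted p = 0.991). Again none of 474 genes passed, 0%, and the 7 (1.48%) with an unadjusted p under 0.05 included no member. Without DNBS_Nissle sample 1 the differences were 1.20 for Cxcl9, 0.44 for Cxcl10 and 0.22 for Socs1. The comparisons of DNBS_CEC and of DNBS_Nissle with DNBS share the DNBS samples.

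Between the oral agents, DNBS_CEC against DNBS_Nissle, Cxcl10 differed by −2.07 ± 0.94, a fold of 0.239, with an unadjusted p of 0.0429 and an adjusted p of 0.968 (limma). The exact permutation p was 0.2. The other differences were −0.92 ± 0.81 for Cxcl9, −0.78 ± 0.62 for Socs1 and 0.20 ± 0.35 for Il15 (adjusted p = 0.974 for each). None of 471 genes passed, 0%, and 22 (4.67%) had an unadjusted p under 0.05, Cxcl10 among them. Over the alternatives the Cxcl10 difference ran from −3.02 to −0.92, the last without DNBS_Nissle sample 1, and never passed. Without DNBS_CEC sample 2 alone the differences were −1.93 for Cxcl9, −2.77 for Cxcl10 and −1.55 for Socs1 (adjusted p = 0.426 for each). Without both samples, the differences were −1.65 ± 0.60 for Cxcl9, −1.63 ± 0.54 for Cxcl10 and −1.19 ± 0.43 for Socs1 (SE; adjusted p = 0.789 for each).

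**Figure D3:**
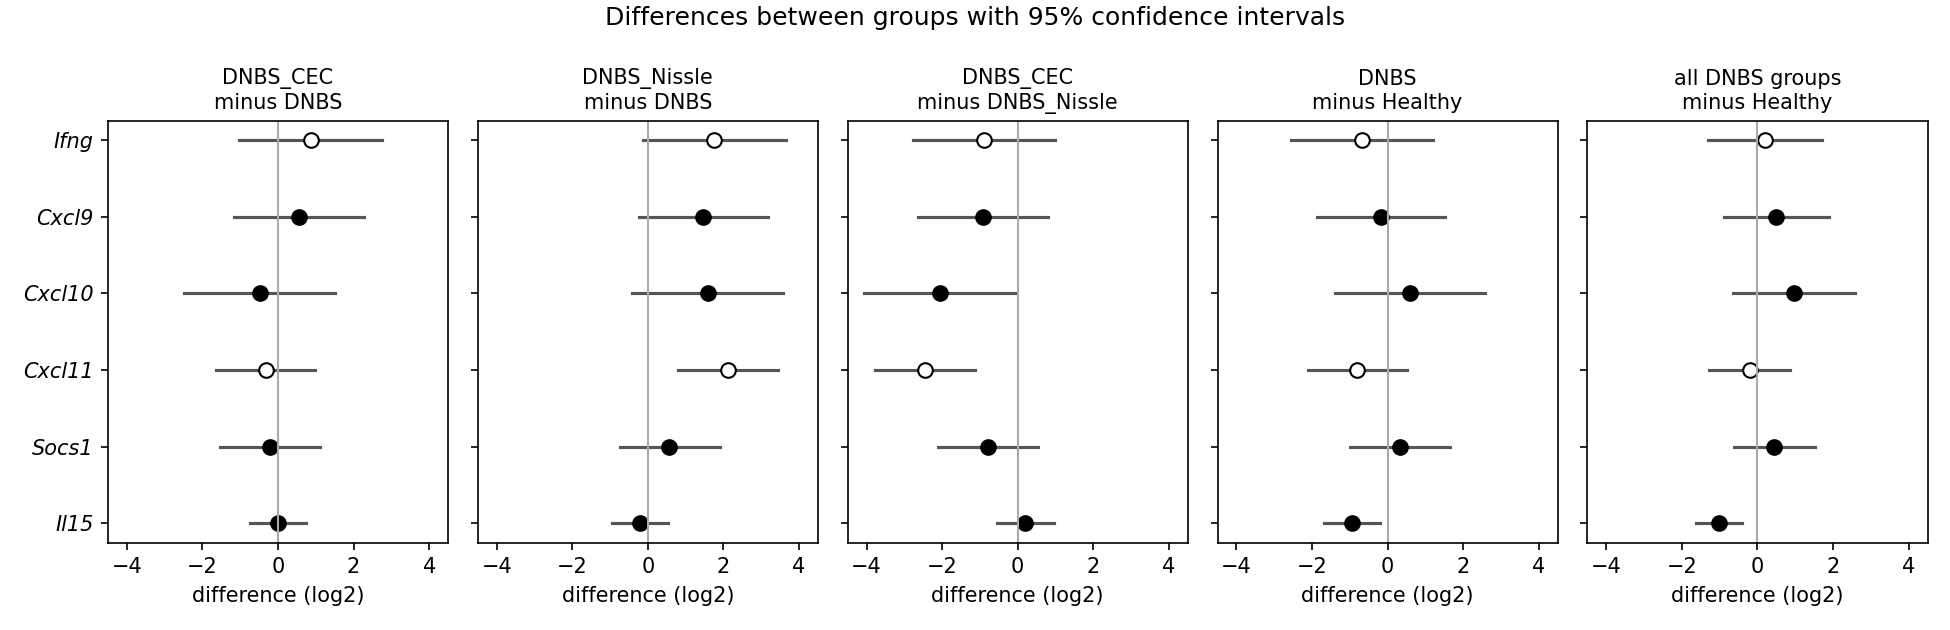
Differences in level (log2) for each gene in 5 comparisons, with 95% confidence intervals from limma; filled points were tested with a Ct above 28 set to 28, and open points (Ifng, Cxcl11) use every Ct as measured. The intervals of Il15 against Healthy, of Cxcl11 in DNBS_Nissle against DNBS, and of Cxcl10 and Cxcl11 in DNBS_CEC against DNBS_Nissle lie off 0. None of these passed after adjustment over all genes.

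Across the 16 samples, Socs1 followed Cxcl9 and Cxcl10. All 15 pairs of the 6 genes were compared on the levels as measured, a choice made after the values were seen because Ifng and Cxcl11 were often below the limit. Cxcl9 and Socs1 correlated at r = 0.92 (rho = 0.89, adjusted permutation p = 0.00015), and at 0.94 within groups (adjusted p = 0.00645). Without the 2 samples farthest in Cxcl9, DNBS_CEC 2 and DNBS_Nissle 4, r was 0.86. Cxcl10 and Socs1 correlated at r = 0.83 (rho = 0.86, adjusted permutation p = 0.000375), at 0.81 within groups (adjusted p = 0.00645), and at 0.84 without DNBS_Nissle 1 and DNBS_CEC 2. Between Cxcl9 and Cxcl10 r was 0.70 over all samples (adjusted permutation p = 0.0182). It was 0.65 within groups and 0.61 without DNBS_Nissle 1 and DNBS_CEC 2 (adjusted permutation p of 0.0796 and 0.0755).

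In all, 8 of 15 pairs had an adjusted p under 0.05 over all samples, 2 did within groups, and 3 did without DNBS_CEC 2 and DNBS_Nissle 1; the last set added Cxcl9 with Cxcl11, at r = 0.76 (adjusted permutation p = 0.0067), against 0.57 with both samples. Ifng correlated with Cxcl9 at 0.57, Cxcl10 at 0.64 and Socs1 at 0.62 (rho 0.36, 0.21 and 0.44; adjusted permutation p of 0.0423, 0.0388 and 0.032). Without those 2 samples the r values were 0.09, −0.17 and 0.08, so the relations of Ifng rest on them. No correlation of Il15 with another member had an adjusted p under 0.05, with r between −0.20 and 0.02 (adjusted p from 0.673 to 0.97). Within groups its r values were all positive, between 0.13 and 0.34 (adjusted permutation p from 0.547 to 0.661). With filled-in and shortened values missing, 6 of the 8 no longer had an adjusted p under 0.05; Cxcl9 with Socs1 and Cxcl10 with Socs1 still did. All pairs share the sample's reference, whose error moves both genes together. With the mean of all detected genes in its place Cxcl9 and Socs1 correlated at 0.93. That mean is also shared by both genes, so this value cannot tell how much such error adds.

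**Figure D4:**
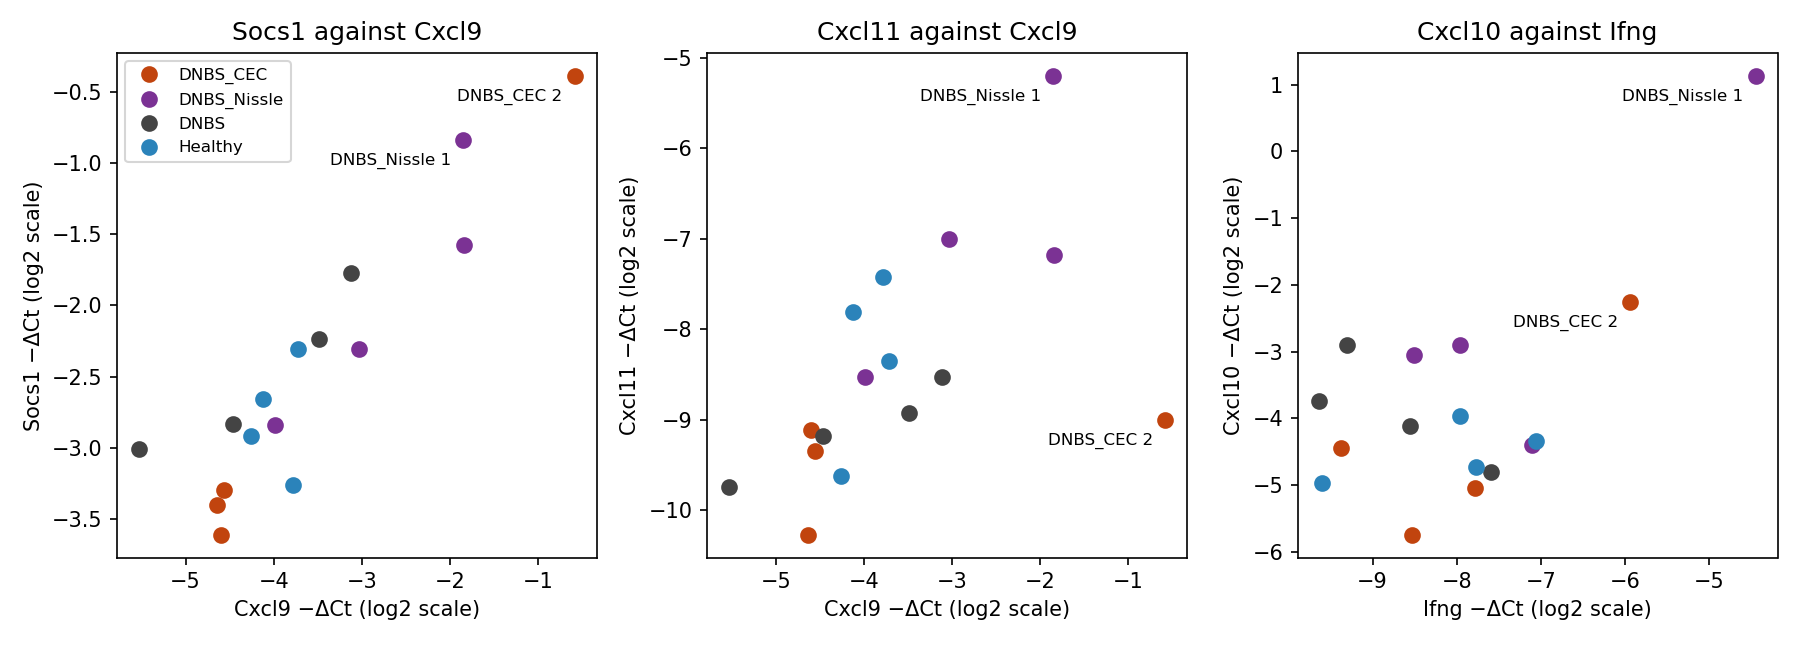
Levels (−ΔCt, log2 scale) of Socs1 against Cxcl9, Cxcl11 against Cxcl9 and Cxcl10 against Ifng; each point is 1 of the 16 samples, coloured by group. Socs1 rises with Cxcl9 over the whole range (r = 0.92), DNBS_CEC sample 2 has the most Cxcl9 with a Cxcl11 Ct of 28.22, just past the detection limit, and 2 labelled samples carry the relation of Cxcl10 with Ifng.

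The 2 samples with the most Ifng differed in which chemokine stood out, and this needs no reference gene. In DNBS_CEC sample 2 the Ct of Cxcl10 came 1.67 cycles after that of Cxcl9, and that of Cxcl11 came 8.42 cycles after it, each the highest signed difference of the 16 samples. In DNBS_Nissle sample 1 the Ct of Cxcl10 minus that of Cxcl9 was −2.98 and the Ct of Cxcl11 came 3.35 cycles after Cxcl9, each at the opposite end of the series. The other 14 samples lay between −1.79 and 1.21 cycles for the Cxcl10 gap and between 3.64 and 5.62 cycles for the Cxcl11 gap. Both samples were singled out after these levels were seen, so the gaps partly restate which chemokine was highest in each. In DNBS_CEC sample 2 the level of Cxcl10 still ranked 2 of 16, and the Cxcl11 Ct, 28.22, lay past the detection limit.

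The T cell markers of the panel, Cd4 and Cd28, moved with the first of these samples and not with the second. Their summed level, in units of the reference, was 0.0993 in DNBS_CEC sample 2, the highest of 16, and 0.0243 in DNBS_Nissle sample 1, rank 11. It ranged from 0.0191 to 0.0993 in DNBS_CEC, 0.0158 to 0.0312 in DNBS_Nissle, 0.00919 to 0.0744 in DNBS and 0.0354 to 0.0579 in Healthy mucosa. Of 9 listed markers of monocytes, macrophages and dendritic cells, 5 were on the panel, and their sum ranked these samples the other way. It was 0.939 in DNBS_CEC sample 2, rank 10, and 1.54 in DNBS_Nissle sample 1, rank 2. The group ranges of that sum overlapped, at 0.563 to 1.32 in DNBS_CEC and 0.564 to 1.54 in DNBS_Nissle mucosa. In DNBS and Healthy mucosa they were 0.717 to 1.98 and 0.698 to 0.955. Of 5 listed B cell markers, 1 was on the panel, Cd180. Its level was highest in DNBS_CEC sample 2 by a small margin, at −4.57 against −4.61 in DNBS_CEC sample 6. DNBS_CEC sample 2 had the lowest fat marker sum (0.519), while the sum of Sele and Selp was highest in DNBS_Nissle sample 1 (0.29). The part of these cell types in the chemokine values was not tested. Only 2 of the 10 listed T cell markers, 1 of 8 natural killer markers (Fasl) and 1 of 8 epithelial markers (Il22ra1) were on the panel, so the labelled tissue could be checked only in part; Il22ra1 was detected in every group. The neutrophil markers (6 of 6 on the panel) summed to 0.0761 to 7.27 in DNBS_CEC, 4.48 to 12.1 in DNBS_Nissle, 0.563 to 50.2 in DNBS and 0.0317 to 0.0987 in Healthy mucosa. The lowest DNBS_CEC sum lay within the Healthy range, and every DNBS_Nissle and DNBS sum lay above it. The part of neutrophils, monocytes, macrophages and dendritic cells in the Il15 result was not tested.

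Of 52 listed interferon gamma and type 1 genes other than the members, 33 were on the panel and 26 could be tested over all DNBS-treated samples against Healthy: 13 were higher and 13 lower, with a median difference of 0.03 against 0.01 for all genes, and 1 passed, beside 9 of all 453 genes (1.99%). That gene was Nos2, the inducible nitric oxide synthase, at 3.09 ± 0.59 (SE, limma adjusted p = 0.0106), which lay above every Healthy sample in all 12. The same held for 1.55% of the 453 genes. For Nos2 the margin was narrow, at −4.13 in DNBS_CEC sample 8 against −4.17 in Healthy sample 5. The receptor subunits Ifngr1 and Ifngr2 differed by −0.01 ± 0.56 and −0.16 ± 0.28. The Il15 receptor chain Il15ra differed by 0.33 ± 0.33 and the chemokine receptor Cxcr3 by −0.74 ± 0.42 (adjusted p of 0.733 and 0.419). Next to Nos2 in p were Il18rap, a chain of the interleukin 18 receptor, at 0.89 ± 0.39, and the class I histocompatibility gene H2-Q10 at −0.95 ± 0.52 (adjusted p of 0.321 and 0.393).

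In DNBS against Healthy mucosa 16 of 26 listed genes were higher and 10 lower, and Nos2 again passed, the single gene of all 457 to do so, at 3.83 ± 0.72 (SE, limma adjusted p = 0.0325). No gene, Nos2 included, passed there without DNBS sample 2 or 3 or without Healthy sample 3, 4 or 6, and without Healthy sample 3 none passed over all DNBS-treated samples. H2-Q10 differed by −1.55 ± 0.63 (adjusted p = 0.332) without overlap between the groups, and Il18rap by 0.85 ± 0.48 (adjusted p = 0.605). Of all 457 genes, 1.75% were lower without overlap, and 8.53% did not overlap in either direction. In DNBS_CEC against DNBS mucosa 9 were higher and 17 lower, in DNBS_Nissle against DNBS 9 and 18, and in DNBS_CEC against DNBS_Nissle 15 and 11, and none passed in these. The median differences of the listed genes were 0.05, −0.06, −0.19 and 0.06 in these comparisons in that order, against 0.12, −0.11, −0.18 and 0.15 for all genes tested. H2-Q10 had the lowest p of the listed genes in DNBS_CEC against DNBS, at 1.61 ± 0.64 (adjusted p = 0.992), followed by Nos2 at −1.52 ± 0.73 and Il27ra, the receptor of interleukin 27, at −0.71 ± 0.46. It also had the lowest in DNBS_CEC against DNBS_Nissle, at 1.42 ± 0.63 (adjusted p = 0.968), followed by Il18rap at −0.80 ± 0.48 and Ifngr2 at 0.48 ± 0.34. In DNBS_Nissle against DNBS the lowest were Ifngr2 at −0.48 ± 0.34, Cxcr7 at −1.36 ± 0.99 and the type I interferon Ifna2 at −1.24 ± 0.94 (adjusted p = 0.977 for each).

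Over the 16 samples and 411 genes detected in all of them, the genes most like each member were named as a description. Nearest to Cxcl9 were Socs1 (r = 0.92), Tlr4, the receptor for bacterial lipopolysaccharide (0.89), and the death receptor Fas (0.78). Nearest to Socs1 were Tlr4 (0.93), Cxcl9 (0.92) and the transglutaminase Tgm2 (0.86). Cxcl10 was nearest to the calcineurin regulator Rcan1 (0.84), Socs1 (0.83) and the gene listed as Cd (0.83). Without DNBS_CEC 2 and DNBS_Nissle 1 these r values were 0.81 for Cxcl9 with Socs1, 0.77 for Cxcl9 with Tlr4, 0.58 for Cxcl9 with Fas, 0.88 for Socs1 with Tlr4, 0.67 for Socs1 with Tgm2, 0.68 for Cxcl10 with Rcan1 and 0.47 for Cxcl10 with Cd, so these neighbours other than Socs1 for Cxcl10, at 0.84, correlated less without the 2 samples. Il15 had a separate set: Il22ra2, the soluble binding protein of interleukin 22 (0.90), Sectm1b (0.88) and the histone deacetylase Hdac5 (0.87). Without the 2 samples these r values were 0.90, 0.89 and 0.88. Within groups they were 0.79 for Il22ra2, 0.88 for Sectm1b and 0.85 for Hdac5, and the samples share their reference.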

How the data were processed

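RNA from colonic mucosa was measured on the TaqMan OpenArray Mouse Inflammation Panel. The authors deposited raw cycle thresholds (Ct; unit recorded as other), with no normalization; the thresholding software is not given in the sources used here. A Ct gives no molecule number, hence no counting interval. Levels, −ΔCt, used 13 reference genes (19 assays). For genes with more than 1 assay, only the most often detected were averaged, which left out the second Ifng assay. The 16 control genes were not tested. Differences were fitted with limma 3.58.1 (R 4.3.3) in 1 model over 16 samples with 12 residual degrees of freedom, after a check on simulated data. Correlations used 100000 permutations (SciPy 1.17.1). The members, gene lists and named-gene rule (members; listed genes that passed, had the lowest p or did not overlap; the 3 nearest genes) were chosen with earlier results of these data known. Sample numbers were not used as pairs, because the labels do not say whether they pair the groups. Deviations correlated at −0.47 to 0.31 over 10 same-numbered pairs, 4 of them over 0.1, which is too few pairs to settle it. Alternatives covered the reference, the detection limit, filled-in and shortened values, the samples fitted and each sample left out. Some genes are not reported here by name.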

Additional observations from a re-analysis of the deposited data

Results flagged for a closer look

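Cxcl9 in DNBS_CEC sample 2 had a level of −0.58, while the other DNBS_CEC samples lay between −4.64 and −4.56; the gap to its nearest neighbour took up 0.98 of the group's range, above Dixon's 95% critical value for 4 samples. Socs1 in the same sample had a level of −0.39, while the others lay between −3.61 and −3.30, a gap of 0.904 of the range. These were 2 of the 24 sets of 1 gene and 1 group examined, and chance alone marks about 1 in 20 such sets. Without this sample the DNBS_CEC minus DNBS difference was −0.46 for Cxcl9.

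The second Ifng assay, which the comparisons do not use, had a Ct of 26.46 in DNBS_CEC sample 2 and of 25.04 in DNBS_Nissle sample 1. Every other sample, DNBS-treated or Healthy, was above 28 or did not amplify. Healthy sample 4, which did not amplify in this assay, had a Ct of 27.10 in the first.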

How the results depend on the processing

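No member passed in another setting except Il15 over all DNBS-treated samples against Healthy, which passed at −1.12 without Ywhaz and Rplp2, −1.14 with the global mean, −1.24 after quantile normalization and −1.10 without DNBS_CEC sample 6 (adjusted p = 0.0423). Leaving out 1 sample at a time moved it between −1.10 and −0.92. For a member, the settings gave 549 differences that kept their direction and side of the threshold and 23 of the opposite sign, none of which passed in either sense. Socs1 in DNBS against Healthy was −0.03 after quantile normalization and −0.07 with the sample number as a block. Il15 in DNBS_CEC against DNBS was 0.13 with the global mean, 0.24 after quantile normalization and 0.17 with shortened values missing. In DNBS_Nissle against DNBS it was 0.02 with Gapdh, 0.00 with shortened values missing and 0.05 with the block. In DNBS_CEC against DNBS_Nissle it was −0.05 without Ywhaz and Rplp2, −0.15 with Gapdh and −0.18 with the block. Cxcl9 in DNBS_CEC against DNBS was −0.46 without both samples that stand apart, and Ifng in DNBS_CEC against DNBS_Nissle was 0.12 without both samples with most filled-in values. With 1 sample left out, the ranges were −0.52 to 0.28 for Cxcl9 in DNBS against Healthy; −0.46 to 0.90 for Cxcl9, −0.97 to 0.10 for Socs1 and −0.26 to 0.28 for Il15 in DNBS_CEC against DNBS; and −0.05 to 0.48 for Il15 and −1.33 to 0.12 for Ifng in DNBS_CEC against DNBS_Nissle. The correlation of Socs1 with Il15 was 0.01 without Ywhaz and Rplp2. The cause of these changes was not tested.

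The count of genes past the threshold in DNBS against Healthy, 1, became 4 with Gapdh or with genes detected in all samples, 5 with undetected values missing, 7 with those groups fitted alone, and 2 with the block or without both samples that stand apart. It became 0 with the global mean, quantile normalization, values as measured or both samples with most filled-in values left out, and ran from 0 to 6 with 1 sample left out. Over all DNBS-treated samples the count, 9, became 5 with filled-in values missing, 0 with the block or without both samples with most filled-in values, and 0 to 11 with 1 sample left out. In DNBS_CEC against DNBS_Nissle 1 gene passed with a limit at a Ct of 30. The block changed no call of a member. Ifng and Cxcl11 lie near the detection limit, where a failed well cannot be told apart from little RNA.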
